A study of Mus musculus with 23 samples.

Results

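The EGR transcription factors and their corepressors were examined in the nucleus accumbens of mice that had received cocaine or saline. The genes were Egr1, Egr2, Egr3, Egr4, Nab1 and Nab2. All of their probes with a detection p-value under 0.01 on at least 5 arrays were taken, which gave 10 of the 12 probes annotated to them, among 18509 probes tested. The 6 genes stood among 10138 genes tested. Egr1, Egr2, Egr4 and Nab2 had 1 probe each, Egr3 had 2, and Nab1 had 4 of its 6. The remaining Nab1 probes were detected on 0 and on 1 of the 23 arrays. Probes of a gene are lettered here by falling mean intensity, and a gene is represented by its probe a.

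The tissue was punched from the nucleus accumbens, which belongs to the ventral striatum, 1 h after an intraperitoneal injection. The mice were C57BL6, either wild type or heterozygous for S321X, a premature stop codon in the forkhead transcription factor Foxp2, and the wild types were littermates. The groups were 6 wild-type mice given saline (3 male, 3 female), 6 wild-type mice given cocaine at 15 mg/kg (3 male, 3 female), 5 heterozygotes given saline (2 male, 3 female) and 6 heterozygotes given cocaine at 15 mg/kg (3 male, 3 female). The heterozygotes carried the stop codon in all cells, and 1 bead array (Illumina MouseWG-6 v2) was run per mouse.

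EGR proteins are zinc-finger transcription factors that bind GC-rich DNA. Their genes are immediate-early genes, switched on within minutes by synaptic activity and growth factors, without new protein synthesis, through serum response factor with its Elk partners and through CREB. In the striatum, dopamine and glutamate reach them through the ERK kinase cascade. Nab1 and Nab2 bind Egr1, Egr2 and Egr3 and repress the transcription that these drive, and Nab2 is itself an Egr1 target in human cells.

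The sequence before the start site of 3 of these genes is shown because it carries the elements named above. RefSeq entries (GRCm38.p6) were used for 4 of the 6 genes, Egr2, Egr4, Nab1 and Nab2, and the 250 bases before each listed start were searched on both strands. Capitals mark, for Egr2, the CArG box to which serum response factor binds and the CRE half-sites TGACG to which CREB binds, for Egr4 the CRE half-sites, and for Nab1 the EGR sites GCGTGGGCG and GCGGGGGCG and 1 CRE half-site. A half-site on the opposite strand reads CGTCA. No marked element overlaps another.
Egr2, chr10:67537619-67537868, plus strand: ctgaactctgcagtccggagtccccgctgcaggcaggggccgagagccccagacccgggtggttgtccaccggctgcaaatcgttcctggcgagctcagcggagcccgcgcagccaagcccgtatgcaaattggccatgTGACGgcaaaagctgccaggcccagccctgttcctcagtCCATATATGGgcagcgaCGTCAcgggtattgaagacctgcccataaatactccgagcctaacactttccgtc
Egr4, chr6:85513590-85513839, minus strand: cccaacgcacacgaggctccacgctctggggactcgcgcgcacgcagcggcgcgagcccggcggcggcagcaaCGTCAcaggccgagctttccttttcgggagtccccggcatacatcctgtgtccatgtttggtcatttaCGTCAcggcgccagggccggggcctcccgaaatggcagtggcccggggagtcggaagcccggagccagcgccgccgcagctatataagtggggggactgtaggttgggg
Nab1, chr1:52500449-52500698, minus strand: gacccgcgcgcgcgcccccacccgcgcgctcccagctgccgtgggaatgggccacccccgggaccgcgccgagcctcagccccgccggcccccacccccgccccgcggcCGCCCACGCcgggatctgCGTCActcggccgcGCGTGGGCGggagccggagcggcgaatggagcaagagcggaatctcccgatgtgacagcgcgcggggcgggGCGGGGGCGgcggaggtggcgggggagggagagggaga

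In the Egr2 window the CArG box CCATATATGG began 72 bases before the start, with half-sites at 111 and 55 bases. Egr2 has 5 listed starts, of which 4 hold a CArG box within 250 bases, and 3 of those windows overlap and share the box printed here. The Egr4 window held half-sites at 177 and 109 bases and no CArG box. The Nab1 window held EGR sites at 141, 109 and 38 bases and a half-site at 123 bases, and the Nab2 window held none of these elements. Among the 32851 windows of all listed starts, 1.47% held a CArG box, 17.8% a CRE half-site and 3.90% at least 2 half-sites. GCGTGGGCG was in 0.536% and GCGGGGGCG in 2.57% of the windows, and 11 windows (0.0335%) held 3 or more EGR sites of either spelling. These matches are letters in a window and were not tested for binding.

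Between 16102 and 17933 probes were detected per array, and the number of arrays limits the precision. The 3 detected Foxp2 probes stood at 65.7% to 71.5% of the wild-type level in heterozygotes after saline and at 61.0% to 69.2% after cocaine, and 0 of them passed limma's adjusted test (1 passed an unadjusted p of 0.05 after saline and 2 after cocaine). Cell type markers moved with the injection when the genotypes were averaged. Of the excitatory cortical markers 6 of 9 were measured and 4 were higher after cocaine (3.16% of all genes were). Of the striatal projection markers 12 of 15 were measured and 7 were lower (1.29% of all genes were). Within wild type 0 markers of either list were called, where 0.109% of all genes were. Of the 6 excitatory markers 5 changed upward there (median 0.46), and of the 12 striatal markers 0 did (median -0.23). With limma 2 excitatory and 4 striatal markers passed an unadjusted p of 0.05 in wild type, as 8.58% of all genes did. Within heterozygotes 3 excitatory markers were higher (median of the 6 1.22) and 5 striatal markers lower (median of the 12 -0.49), where 2.68% of all genes were called. The mean log2 deviation of the excitatory markers ranged from -0.97 to 0.02 in wild-type saline, from -0.45 to 0.71 in wild-type cocaine, from -1.61 to 0.04 in heterozygous saline and from -0.14 to 1.16 in heterozygous cocaine arrays. For the striatal markers these ranges were 0.11 to 0.31, -0.27 to 0.21, 0.06 to 0.28 and -0.74 to 0.01. Heterozygous cocaine arrays 9, 16 and 19 had the highest excitatory values (1.03 to 1.16) and the lowest striatal values (-0.74 to -0.59). Without them 0 excitatory markers were called in the averaged comparison, and 1 striatal marker (Drd1) was lower, where 49 of all 10138 genes were called. The median change of the excitatory markers was 0.50 without them, against 0.84 with all arrays. That of the striatal markers was -0.26, against -0.40. Among excitatory markers Emx1 was detected on 0 arrays and Slc17a7 on all 23. In RNA of whole punches, fewer cells of a type and less RNA per cell cannot be told apart. Results are therefore also given without those 3 arrays and with the marker level as a covariate.

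Cocaine was followed by higher Egr2, Egr4, Egr1 and Nab1 RNA, in that order of estimated size, while Egr3 and Nab2 did not pass the test. The Nab1 call rested on its brightest probe only, was made in neither genotype alone and was lost in 16 of 36 processing alternatives. With limma and Benjamini-Hochberg adjustment over all probes, 4 of the 6 genes were called higher at an adjusted p under 0.05 when the genotypes were averaged, and 0 lower. Over all 10138 genes 3.16% were called higher, 1.29% lower and 4.45% in either direction. The median change of the 6 genes was 0.38 on the log2 scale, against -0.01 over all genes. In the following, levels are normalized log2 intensities of a probe and changes are differences of them.

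**Figure D1:**
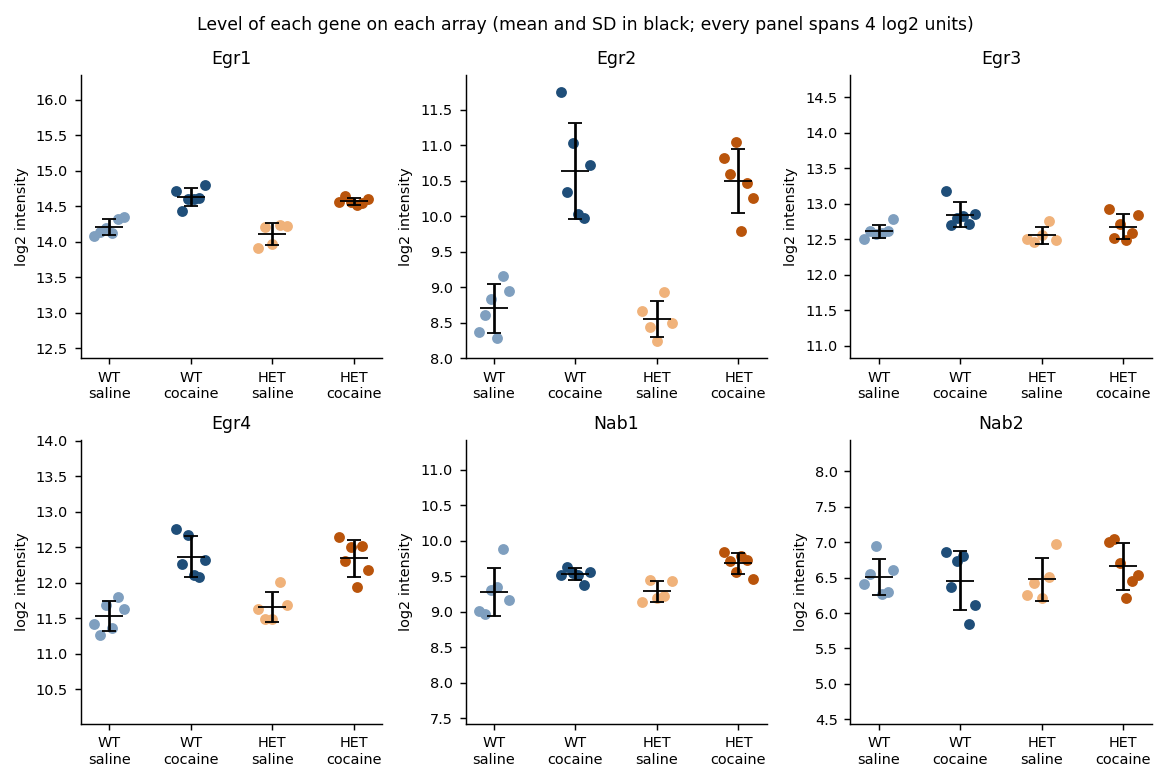
Normalized log2 intensity (vertical axis) of the representative probe of each gene on each of the 23 arrays, by group on the horizontal axis (WT, wild type; HET, heterozygous; black, mean and SD), with every panel spanning the same range. Egr2 cocaine arrays lie at 9.78 or higher and saline arrays at 9.16 or lower, while the groups overlap for Egr3, Nab1 and Nab2. For Egr4, cocaine array 16 (11.94) lies below saline array 18 (12.01).

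Egr2, also known as Krox20 and best known for its role in Schwann cell myelination and hindbrain segmentation, changed most. Its level in wild-type saline arrays ranged from 8.29 to 9.16 with a median of 8.72, and in heterozygous saline arrays it was 8.66, 8.44, 8.24, 8.93 and 8.49. After cocaine it ranged from 9.97 to 11.75 (median 10.53) in wild type and from 9.78 to 11.05 (median 10.53) in heterozygotes. All 12 cocaine arrays stood above all 11 saline arrays, a separation found in 10 of 10138 genes (0.0986%). Wild-type cocaine array 4 was the highest of all and heterozygous array 16 the lowest of the cocaine arrays. The averaged change was 1.94 ± 0.18 (log2, SE), 3.84-fold with a 95% interval of 2.96 to 4.98, and ranked first of the 10138 genes both by p and by size of increase (limma, adjusted p = 3.6e-06). Within wild type it was 1.94 ± 0.25 (adjusted p = 0.0013) and within heterozygotes 1.95 ± 0.26 (adjusted p = 8.1e-04). The spread was wider after cocaine, with an SD of 0.68 in wild type and 0.44 in heterozygotes, against 0.34 and 0.26 after saline.

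Egr4, also known as NGFI-C and needed for male fertility in mice, had the next largest change. Its saline levels ranged from 11.27 to 11.81 (median 11.53) in wild type and were 11.63, 11.49, 11.49, 12.01 and 11.69 in heterozygotes. Its cocaine levels ranged from 12.08 to 12.76 (median 12.30) in wild type and from 11.94 to 12.64 (median 12.41) in heterozygotes. Of the 12 cocaine arrays 11 lay above all saline arrays, and the exception, array 16 at 11.94, lay below heterozygous saline array 18 at 12.01. The averaged change was 0.76 ± 0.10, or 1.70-fold (1.47 to 1.95; limma, adjusted p = 1.5e-04), the 58th largest increase and the 9th smallest p of all genes. It was 0.84 ± 0.14 in wild type (adjusted p = 0.0097) and 0.69 ± 0.14 in heterozygotes (adjusted p = 0.014).

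Egr1, also known as Zif268 and widely used as a marker of neuronal activity and plasticity, was lifted by a smaller amount on every cocaine array. Its saline levels ranged from 14.08 to 14.35 (median 14.17) in wild type and were 13.91, 14.20, 13.97, 14.24 and 14.23 in heterozygotes. After cocaine they ranged from 14.44 to 14.80 (median 14.61) and from 14.51 to 14.64 (median 14.56). All 12 cocaine arrays again lay above all 11 saline arrays, and heterozygous cocaine arrays had the smallest spread of any group (SD 0.05). The averaged change was 0.45 ± 0.06, or 1.36-fold (1.26 to 1.48; limma, adjusted p = 1.1e-04), which was the 242nd largest increase but the 6th smallest p. It was 0.43 ± 0.08 in wild type (adjusted p = 0.023) and 0.46 ± 0.08 in heterozygotes (adjusted p = 0.0047). The Egr1 probe was among the brightest of the array: its raw intensity lay between 12337 and 32592 units, at 33.2% to 78.0% of the brightest probe of the same array, with 48 to 223 probes brighter. The part of this brightness in the size of its change was not tested.

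Egr3, a gene required for muscle spindle development that is also induced by neuronal activity, did not pass the test. Its probe a ranged from 12.50 to 12.79 (median 12.60) in wild-type saline arrays and was 12.50, 12.46, 12.56, 12.76 and 12.49 in heterozygous saline arrays. After cocaine it ranged from 12.70 to 13.18 (median 12.82) in wild type and from 12.49 to 12.93 (median 12.65) in heterozygotes. The groups overlapped, with 6 of 12 cocaine arrays above all saline arrays. The averaged change was 0.18 ± 0.07 (95% interval 0.04 to 0.32), which passed an unadjusted p of 0.05 but not the adjustment over all probes (limma, adjusted p = 0.13). Probe b of Egr3 was detected on 12 of 23 arrays and differed by 0.07 ± 0.15 (limma, adjusted p = 0.88).

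Nab1, a corepressor, was called by its brightest probe only. Probe a ranged from 8.96 to 9.88 (median 9.23) in wild-type saline arrays and was 9.14, 9.45, 9.19, 9.21 and 9.43 in heterozygous saline arrays. After cocaine it ranged from 9.38 to 9.63 (median 9.53) in wild type and from 9.45 to 9.85 (median 9.72) in heterozygotes. Wild-type saline array 17, at 9.88, lay above all 12 cocaine arrays, so that 0 of 12 stood above all saline arrays, while in heterozygotes 6 of 6 stood above the saline arrays of that genotype, as they did in 1.53% of all genes. The averaged change was 0.32 ± 0.08, or 1.25-fold (1.11 to 1.41; limma, adjusted p = 0.034). Within wild type it was 0.25 ± 0.12 (adjusted p = 0.58) and within heterozygotes 0.40 ± 0.12 (adjusted p = 0.089). Probes b, c and d differed by 0.18 ± 0.08, 0.14 ± 0.10 and 0.35 ± 0.13 (limma, adjusted p = 0.24, 0.52 and 0.13). Probe d was detected on 2 of 6 wild-type and 2 of 5 heterozygous saline arrays, and on 6 of 6 and 5 of 6 cocaine arrays, so that it met the detection rule through the cocaine groups and its direction adds no support.

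Nab2, the other corepressor, was dim and did not pass the test. It was detected on 14 of the 23 arrays, and its level ranged from 6.27 to 6.94 (median 6.48) in wild-type saline arrays and was 6.25, 6.43, 6.21, 6.51 and 6.97 in heterozygous saline arrays. After cocaine it ranged from 5.84 to 6.85 (median 6.55) and from 6.20 to 7.04 (median 6.62). The groups overlapped throughout. The averaged change was 0.06 ± 0.13 (95% interval -0.21 to 0.33; limma, adjusted p = 0.87), so that changes up to 1.26-fold lie inside its interval.

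Within a single genotype, Egr2, Egr4 and Egr1 were called in wild type, where 0.109% of all genes were called, and the same 3 in heterozygotes, where 2.68% were. In wild type all 6 cocaine arrays stood above all 6 saline arrays for each of these 3 genes, a separation found in 0.355% of all genes. The wild-type call of Egr1 was lost without array 2, 4, 5, 7, 12, 15 or 24 (the lowest and highest adjusted p over the arrays left out one by one were 0.014 and 0.099), and the heterozygous call of Egr4 was lost without array 14 (adjusted p = 0.059). When the 2 groups of a genotype were fitted alone, Egr1 (0.14) and Egr4 (0.054) lost their adjusted calls in wild type, as did Egr4 in heterozygotes (0.055).

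Without arrays 9, 16 and 19, Egr2, Egr1 and Egr4 remained called in the averaged comparison while the number of called genes over the whole array fell from 451 to 49. With the excitatory marker level as a covariate the same 3 genes were among the 18 still called. Egr2 changed by 2.05, 2.05 and 2.24 without the 3 arrays and with the excitatory and the striatal level as a covariate. Nab1 changed by 0.29, 0.26 and 0.19 in the same settings and passed in none of them (adjusted p = 0.26, 0.93 and 1.00). Its call was also lost with no filter on dim probes (adjusted p = 0.063), with blocks of 6 array numbers (0.054) and without any 1 of the arrays 1, 2, 5, 9, 12, 14, 16, 18, 19, 20 and 24 (up to 0.068). In wild type alone Egr2 and Egr4 were called in all 3 of these settings, while Egr1 lost its call without the 3 arrays (limma, adjusted p = 0.060), with the excitatory level (0.088) and with the striatal level (0.077). Those 3 arrays are heterozygous, so without them only the spread estimated over all groups and the adjustment changed, not the wild-type change itself. Over the whole array 6, 10 and 7 of 10138 genes were called in wild type in these settings, against 11 before. In heterozygotes alone the calls were lost over nearly the whole array, from 272 genes to 1, 0 and 1. Egr2 was the 1 gene called without the 3 arrays and with the striatal level, and with the excitatory level, where 0 genes were called, it changed by 2.10 (adjusted p = 0.055). Egr1 and Egr4 were not called in heterozygotes in any of the 3 settings. The correlation of each gene with each marker level within groups was tested in 12 relations over 23 arrays, and 0 passed after adjustment (2 passed an unadjusted p of 0.05). The highest was Egr3 with the striatal level (Pearson r = 0.61, permutation p = 0.017, adjusted p = 0.20; Spearman rho = 0.55, permutation p = 0.035, adjusted p = 0.38), which was 0.52 without the 2 farthest arrays and 0.31 without arrays 9, 16 and 19.

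**Figure D2:**
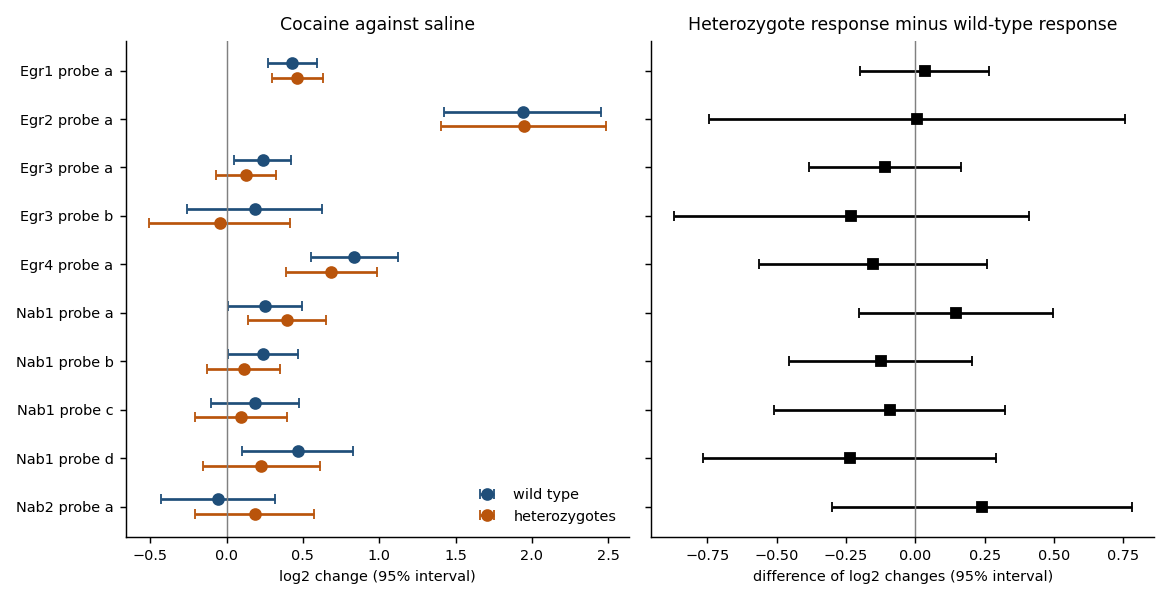
Change after cocaine in each genotype (left, log2) and the heterozygous minus the wild-type change (right, log2), with 95% intervals, for each of the 10 tested probes. Egr2 changed by 1.94 in wild type and 1.95 in heterozygotes, and the intervals of all 10 differences on the right include 0.

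The size of the response differed among the genes measured on the same arrays. For each of the 15 pairs the per-array log2 difference between both genes was compared between cocaine and saline by an exact two-sided permutation test over arrays within genotypes (426888 splits), adjusted over the pairs. Of the 15 pairs 11 differed, 3 of them with Nab2. Nab2 was near background (detected on 14 of 23 arrays), so that differences from it compare measured signals only. The Egr1 probe lay at 33.2% to 78.0% of the brightest probe of its array. The part of this brightness in the differences from Egr1 was not tested. Egr2 rose more than each other gene: by 1.18 more than Egr4, 1.50 more than Egr1, 1.62 more than Nab1, 1.76 more than Egr3 and 1.88 more than Nab2 (permutation, adjusted p = 8.8e-06 to 1.2e-05, where 2.3e-06 is the smallest p before adjustment). For Egr2 minus each of the other genes, all 12 cocaine arrays stood above all 11 saline arrays. Egr4 rose by 0.32 more than Egr1 (adjusted p = 0.0058), 0.44 more than Nab1 (0.0018), 0.58 more than Egr3 (1.2e-05) and 0.70 more than Nab2 (1.6e-04). Egr1 rose by 0.27 more than Egr3 (9.7e-04) and by 0.38 more than Nab2 (0.0092). The differences of Egr1 and Nab1 (0.12, adjusted p = 0.17), Nab1 and Nab2 (0.26, 0.12), Egr3 and Nab1 (-0.14, 0.22) and Egr3 and Nab2 (0.12, 0.39) did not pass.

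Genotype was compared next, to see whether the loss of 1 intact Foxp2 copy moved these genes or their response. Heterozygotes were set against wild type over both injections together, in the saline groups and in the cocaine groups, and the interaction of genotype and cocaine was tested. With limma, 0 of the 6 genes were called in these comparisons, as were 0% of all genes, and 0 of the 6 passed an unadjusted p of 0.05, against 4.73%, 3.71%, 6.65% and 4.81% of all genes. After saline the differences, heterozygous minus wild type, were -0.09 ± 0.08 for Egr1, -0.15 ± 0.26 for Egr2, -0.06 ± 0.10 for Egr3, 0.13 ± 0.14 for Egr4, 0.01 ± 0.12 for Nab1 and -0.04 ± 0.19 for Nab2. After cocaine they were -0.06 ± 0.08, -0.14 ± 0.25, -0.17 ± 0.09, -0.02 ± 0.14, 0.15 ± 0.12 and 0.20 ± 0.18 in the same order. The mean level of Egr2 ran in the order wild-type cocaine, heterozygous cocaine, wild-type saline and heterozygous saline (means 10.64, 10.50, 8.70 and 8.55), of which the step from cocaine to saline alone exceeded the spread. The interaction intervals bound what could have been missed: the heterozygous response of Egr2 minus the wild-type response was 0.01 (95% interval -0.74 to 0.76), that of Egr4 -0.15 (-0.56 to 0.26) and that of Egr1 0.03 (-0.20 to 0.27). For Egr3, Nab1 and Nab2 these differences were -0.11 (-0.38 to 0.16), 0.15 (-0.20 to 0.50) and 0.24 (-0.30 to 0.78).

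Beyond the group means, Egr2 and Egr4 varied together from array to array. After subtraction of the group means, their Pearson r over the 23 arrays was 0.89 and their Spearman rho 0.89 (permutation within groups, p = 1e-05 for both, the smallest that 100000 draws can give, adjusted p = 1.5e-04 over 15 pairs). It was 0.86 without the 2 farthest arrays, 0.85 among the 11 saline arrays and 0.92 among the 12 cocaine arrays. Egr2 with Egr3 (r = 0.65, permutation p = 0.0041, adjusted p = 0.031) and Egr3 with Egr4 (r = 0.59, permutation p = 0.0078, adjusted p = 0.039) also passed by Pearson r, but not by Spearman rho (0.58, permutation p = 0.0096, adjusted p = 0.072, and 0.47, permutation p = 0.044, adjusted p = 0.095). Their r fell to 0.43 and 0.42 without the 2 farthest arrays, so that these relations rest on few arrays. Egr1 and Egr2 reached r = 0.44 (permutation p = 0.041, adjusted p = 0.11; rho = 0.47, permutation p = 0.027, adjusted p = 0.087), which did not pass. No pair with Nab1 or Nab2 passed. Only the group means were subtracted, so a difference between males and females within a group stays in these deviations. Its part in these relations was not tested.

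**Figure D3:**
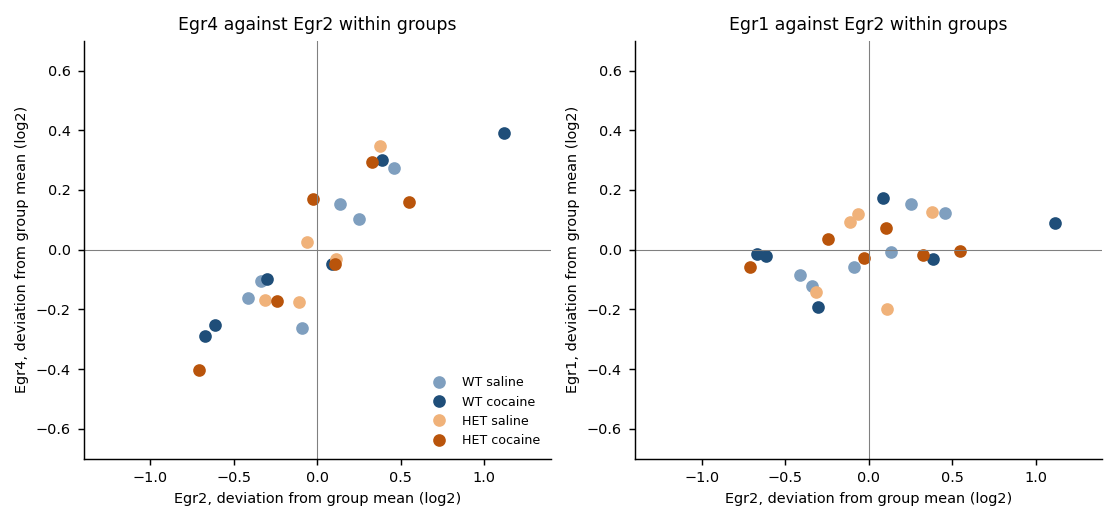
Deviation of each array from its group mean (log2) for Egr4 against Egr2 (left) and Egr1 against Egr2 (right), coloured by group. On the left the 23 points follow a line (r = 0.89), and on the right they scatter widely (r = 0.44).

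Among the 10137 other genes, those whose within-group deviations were most like each gene's were taken as a description over the 23 arrays, with no test. For Egr2 they were Egr4 (r = 0.89), Junb (0.79), an AP-1 subunit and immediate-early gene, and Vipas39 (0.71). For Egr4 they were Egr2, Pdp1 (0.82), a mitochondrial phosphatase subunit, and Dusp1 (0.80), an immediate-early phosphatase of MAP kinases. The nearest gene to Egr1 was Dusp6 (0.77), a phosphatase specific for ERK, followed by Slco1a4 (0.77) and Wipf1 (0.74). Egr3 stood nearest to Taf9b (0.78), Med6 (0.77) and Fem1c (0.72). Nab1 was nearest to Pcdhb9 (0.75), Bcl6 (0.74) and Top1mt (0.73), and Nab2 to Prag1 (0.65), Sgpl1 (0.65) and Clmn (0.63). These genes were picked as the highest of 10137, so their r is high by selection. Without the 2 arrays farthest for the member gene, r ranged from 0.47 (Top1mt for Nab1) to 0.88 (Egr2 for Egr4).

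The sex of each mouse is given with the authors' normalized values, so the response was set out by sex there, averaged over genotypes. In the order in which the samples are listed, all males come before all females. Sex and that order can therefore not be told apart in any difference between the sexes given here. Egr1 and Egr3 probe b have no authors' value. Egr2 averaged 8.49 ± 0.20 (SD, n = 5) in males after saline and 10.89 ± 0.49 (n = 6) after cocaine, and 8.59 ± 0.40 (n = 6) and 10.16 ± 0.35 (n = 6) in females. Its change was 2.41 ± 0.23 (SE) in males and 1.57 ± 0.22 in females, a difference, female minus male, of -0.84 (95% interval -1.51 to -0.17). An exact two-sided permutation of sex within groups (80000 splits) gave p = 0.025 for it, unadjusted, but limma's adjusted p over all 16253 probes was 0.75. Over all probes 0.117% were called for the response in males and 2.07% in females, and Egr2 was called in both (adjusted p = 5.1e-05 and 0.012). Male cocaine samples ranged from 10.29 to 11.72 and female ones from 9.73 to 10.69, with overlap.

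Egr4 showed a like difference. This is no independent second case, as Egr4 was measured in the same mice and varied with Egr2 within groups (r = 0.89). Egr4 rose by 1.02 ± 0.13 in males, from 11.47 ± 0.17 (SD) to 12.50 ± 0.20, and by 0.53 ± 0.12 in females, from 11.64 ± 0.23 to 12.17 ± 0.20, and was called in both (limma, adjusted p = 9.0e-04 and 0.034). The difference was -0.49 (95% interval -0.87 to -0.11; exact permutation p = 0.013, unadjusted, and adjusted p = 0.74 over all probes). The differences of Egr3 (-0.20, exact permutation p = 0.11), Nab1 (-0.24, 0.16) and Nab2 (-0.60, 0.073) did not pass that test. In the limma fit, however, the 95% interval of Nab2 (-1.18 to -0.01) left out 0 as those of Egr2 and Egr4 did, with an adjusted p of 0.75, so that Nab2 also passed that fit's test before adjustment. Over all 16253 probes 0 were called for this difference with limma (0%), and 6.57% passed an unadjusted p of 0.05. The excitatory marker level also moved unequally: its mean deviation was -0.18 in male saline, 0.14 in male cocaine, -0.60 in female saline and 0.61 in female cocaine samples, over 5 of the 9 markers. Its part in the sex difference was not tested.

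**Figure D4:**
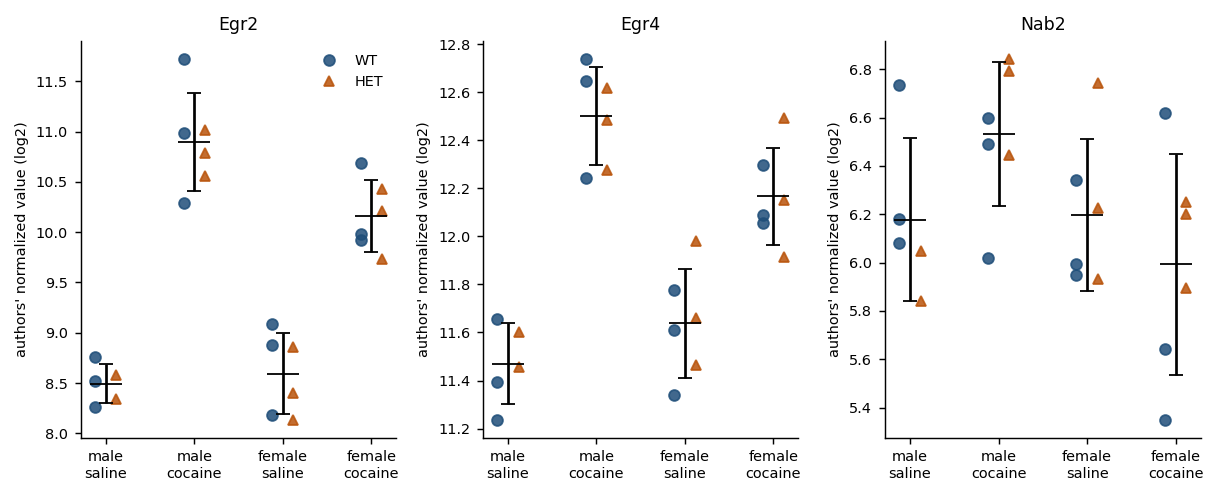
The authors' normalized log2 values of Egr2, Egr4 and Nab2 (vertical axes differ in range) by sex and injection, with circles for wild-type (WT) and triangles for heterozygous (HET) mice and black marks for mean and SD. Egr2 rose in both sexes, to a mean of 10.89 in males and 10.16 in females.

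The genes around these factors were taken from lists of known inputs, reported targets and other immediate-early genes, and were tested in the same fit. Of 23 inputs of EGR transcription (serum response factor, its partners, CREB family members and the kinases above them) 11 were measured. Over all genes 3.16% were higher and 1.29% lower after cocaine, and of these 11 inputs 1 was higher and 0 were lower. The 1 was Crem, a CREB family member with inducible repressor forms, which changed by 0.48 ± 0.13 (limma, adjusted p = 0.033). Its level went from 7.05 ± 0.35 (SD, n = 11) to 7.53 ± 0.26 (n = 12), with 5 of 12 cocaine arrays above all saline arrays. The median change of the 11 was -0.04, against -0.01 over all genes, and Srf itself differed by -0.14 ± 0.06 (adjusted p = 0.24).

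Of 21 reported EGR targets 10 were measured and 2 were higher (3.16% of all genes were), with a median change of 0.11. Arc, a synaptic immediate-early gene, went from 9.55 ± 0.24 to 10.73 ± 0.32, a change of 1.17 ± 0.12 (limma, adjusted p = 8.5e-06), and all 12 cocaine arrays stood above all saline arrays. Syn1, which encodes the synaptic vesicle protein synapsin I, changed by 0.30 ± 0.07 (adjusted p = 0.023), with 5 of 12 cocaine arrays above all saline arrays. The myelin genes Mbp (0.02 ± 0.05), Mag (0.05 ± 0.07) and Pmp22 (0.19 ± 0.07), reported as Egr2 targets in Schwann cells, did not pass (adjusted p = 0.91, 0.77 and 0.14).

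Of 19 other immediate-early transcription factors 13 were measured and 8 were higher (3.16% of all genes were), with a median change of 0.40. Fos, the AP-1 subunit, changed by 1.44 ± 0.16 (limma, adjusted p = 2.5e-05), the neuronal factor Npas4 by 0.99 ± 0.13 (1.7e-04), Junb by 0.80 ± 0.14 (0.0032) and the AP-1 subunit Fosl2 by 0.74 ± 0.10 (1.5e-04). Without arrays 9, 16 and 19, and likewise with the excitatory level as a covariate, 5 of the 13 were higher (Fos, Fosl2, Npas4, Junb and Fosb), 1 of the 10 targets (Arc) and 0 of the 11 inputs. In these settings 49 and 18 of all 10138 genes were called in either direction. Astrocyte, oligodendrocyte, microglial, endothelial and blood markers (5, 4, 5, 5 and 3 measured of 5 in each list) had 0 calls in either direction with limma (1, 0, 1, 0 and 0 passed an unadjusted p of 0.05). Over all genes 4.45% were called and 19.2% passed an unadjusted p of 0.05, so 0 calls in such short lists do not show steady levels. Of the choroid plexus markers 2 of 5 were measured and Kl was lower.

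**Figure D5:**
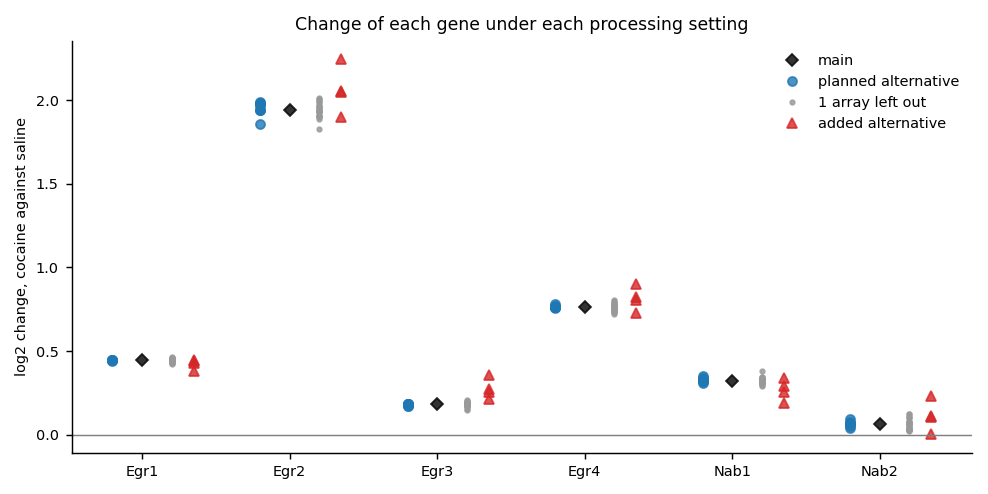
Averaged log2 change after cocaine (vertical axis) of each gene under each processing setting, with the main value as a diamond. Over all settings Egr2 stays between 1.83 and 2.24, Egr4 between 0.72 and 0.90 and Egr1 between 0.38 and 0.46, while Nab1 ranges from 0.19 to 0.38.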

How the data were processed

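Per the labels, total RNA of nucleus accumbens punches was isolated with the mirVana kit and labelled with the Illumina TotalPrep-96 kit. The authors deposited an intensity for every probe and array, non-normalized per the file headers. Between 24.9% and 30.3% of these intensities per array are below 0, so a background had been subtracted. A detection p-value for every intensity was deposited too. The authors' normalized log2 values hold the same sorted values on every array and are therefore quantile normalized, by software not given in the sources used here. Raw columns name the group and an array number (1 to 24, without 8) but not the animal, so sex was tested in the authors' values, which cover 16253 probes.

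The neqc function of limma 3.58.1 (R 4.3.3) was applied to the raw intensities, with an offset of 16 and with negative controls inferred from the detection p-values. Probes with a detection p-value under 0.01 on at least 5 arrays were tested. Of all probes 34885 have 1 gene in the annotation table, 18 several and 10378 none, and the brightest tested probe on average represents a gene. A model of 4 groups was fitted to all 23 arrays with two-sided moderated tests (19 residual degrees of freedom), adjusted by Benjamini-Hochberg over all probes. Permutation tests, marker levels (mean log2 deviation over measured markers) and promoter searches were run in Python 3.11.15 with numpy 2.4.6. The rule for named genes took all members, from each list the called genes with the lowest p (up to 4), and for each member the 3 genes most like it within groups. Srf, the myelin genes, Fosb, Emx1 and Slc17a7 were named after their values were seen. Members and lists were chosen with earlier results of these data known, the 8 cell type marker lists included. The limma fit and the permutation tests were tested on simulated data with known changes.

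The alternatives were each array left out, the compared groups alone, every tested probe counted, no background correction before quantile normalization, an offset of 50, no filter on dim probes, only probes detected on all 23 arrays, robust moderation with an intensity trend, array weights, and the authors' values, also with a replicate block or a sex term. Chosen after seeing the data were leaving out arrays 9, 16 and 19, the marker levels as covariates, blocks of 6 array numbers, the correlations between members within groups and the sex difference in the response.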

Additional observations from a re-analysis of the deposited data

Results flagged for a closer look

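In wild-type mice given cocaine, Egr3 probe a stood at 13.18 (log2 intensity) on array 4, while the other 5 arrays of that group lay between 12.70 and 12.86. The gap made up 66.5% of the range of the group. This was the 1 case among 40 combinations of a probe and a group examined, where chance alone gives such a case in about 1 of 20. Array 4 also held the highest Egr2 value of all arrays (11.75).

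The response of Egr2 and of Egr4 to cocaine differed between the sexes by an exact permutation test that was not adjusted: female minus male was -0.84 for Egr2 (log2; exact permutation p = 0.025) and -0.49 for Egr4 (exact permutation p = 0.013). Neither passed limma's adjustment over all 16253 probes (adjusted p = 0.75 and 0.74), and 5 genes were tested in this way. Egr2 and Egr4 varied together within groups (r = 0.89), so these are not independent cases. Sex cannot be told apart from the order in which the samples are listed, where all males come first.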

How the results depend on the processing

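In the averaged comparison the changes of Egr1, Egr2 and Egr4 kept their direction and passed in every alternative that could measure them (33 for Egr1, 36 for Egr2 and Egr4), and Egr3 and Nab2 stayed on the other side of the threshold in 36 and 35. Nab1 lost its call in 16 of 36. With the compared groups alone 1 member was called in wild type, where 2 of all 10138 genes were. In heterozygotes 1 was called without arrays 9, 16 and 19, 0 with the excitatory level and 1 with the striatal level, and over all genes the calls were likewise 1, 0 and 1. With each array left out in turn the members called numbered 3 to 4 in the averaged comparison (255 of all genes without array 14 to 694 without array 11), 2 to 3 in wild type (5 to 13) and 2 to 4 in heterozygotes (67 to 521, without the same arrays). In the authors' values 7 of the 10 pairs without Egr1 differed in response, and 11 to 13 of 15 with 1 array left out. The number of pairs varying together was 3, 1 without arrays 9, 16 and 19, and 1 to 5 with 1 array left out (1 without array 2, 3, 4, 16, 18 or 21 and 5 without array 13).

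Only values that did not pass in the first place changed sign. For the interaction, Egr1 was -0.018 with the excitatory level (-0.016 to 0.068 with 1 array left out), Egr3 was 0.037 without arrays 9, 16 and 19 and 0.035 with the striatal level, and Egr2 was -0.0020 with an offset of 50, -0.022 with a sex term, -0.11 with array weights and -0.031 with blocks of 6 array numbers (-0.13 to 0.23). For heterozygotes against wild type after cocaine, Egr2 was 0.068 without the 3 arrays and 0.13 with the striatal level (-0.28 to 0.080), and Egr4 was 0.071, 0.0097 with the excitatory level and 0.10 with the striatal level (-0.081 to 0.059). After saline, Nab1 was -0.012 with a replicate block (-0.055 to 0.13) and Nab2 0.011 with blocks of array numbers (-0.16 to 0.049). The cocaine change of Nab2 in wild type was 0.041 with the striatal level (-0.14 to 0.066). The cause was not tested.

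Samples that share a replicate number in the authors' values were only slightly more alike than others, and the difference was not tested. Over 33 pairs of the same number in different groups the deviations correlated with a median r of 0.08 (-0.26 to 0.42). The median was -0.02 for pairs of other numbers, and 7 of 23 samples correlated best with their own number. With the replicate block 482 genes were called over the whole array in the averaged comparison, against 439 in the same values without it. Signal near background limits Nab2 and Egr3 probe b, detected on 14 and 12 arrays.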
